A study of Mus musculus with 4 samples.

Results

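Bile acids are made from cholesterol in hepatocytes, secreted into bile and returned from the intestine through the portal blood. The farnesoid X receptor (FXR, encoded by *Nr1h4*) is the nuclear receptor that senses them, and it binds DNA together with a retinoid X receptor. Among its targets is *Nr0b2*, which encodes the small heterodimer partner (SHP), a repressor of bile acid synthesis. The transporters set the flow of bile acids through the hepatocyte: uptake from blood across the basolateral membrane, export into bile across the canalicular membrane, and return to blood when bile flow fails.

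The transcripts of 10 genes of this system were followed among the 35739 genes with an abundance value in mouse liver. They were chosen by name for their function: the nuclear receptors *Nr1h4* and *Nr0b2*, the basolateral uptake carriers *Slc10a1*, *Slco1a1*, *Slco1a4* and *Slco1b2*, the canalicular pumps *Abcb11* and *Abcc2*, and *Abcc3* and *Slc51b*, which carry bile acids back across the basolateral membrane. The choice was made with earlier results of these data known. All 10 were found, and all 10 passed the filter on low values (a mean of at least 1 TPM).

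Liver RNA of wild-type (WT) mice 2 and 3 and of *Usp21* KO mice 1 and 3 was compared, with 2 libraries per genotype. *Usp21* encodes a deubiquitinating enzyme. The KO is constitutive: Cre recombination had removed exons 3 and 4 in all tissues, so it does not tell an effect within the liver from effects of other organs. The methods describe WT and KO littermates aged 10 to 11 weeks on a normal diet, from C57BL/6 and 129/Sv stock. Their sex, their feeding state and the hour at which the tissue was taken are not given in the sources used here. In such a cross the stretch of chromosome 1 around *Usp21* may be of 129/Sv origin in the KO, and an effect of that stretch cannot be told apart from that of the deletion. None of the 10 genes lies on chromosome 1.

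The values are TPM, the share of all transcripts in a library that a gene accounts for, corrected for transcript length, so that levels of different genes can be set side by side within a library. TPM keeps no record of depth, and the number of reads behind a value is unknown. The targeted gene *Usp21* was at 4.07 and 6.29 TPM in the WT livers against 1.64 and 2.93 TPM in the KO livers, so that each KO value lay under each WT value. *Gapdh* was at 1115 and 1059 TPM in the WT livers against 1044 and 899 TPM in the KO livers. As a check of the tissue, the hepatocyte product *Alb* stood between 27475 and 43181 TPM in every library. A second table of reads counted per gene held 102898 to 148164 reads per library, but only 5 of these reads fell on the 10 genes, at most 1 per gene and library. It was therefore of no use for them.

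Genotypes were compared by a two-sided limma test of log2(TPM + 1), and p-values were adjusted by the Benjamini-Hochberg method over 9581 tested genes. The added 1 makes the fold changes of weakly expressed genes look smaller than they are. An exact permutation test of a single value between 2 and 2 libraries cannot give a p below 0.333. Over all tested genes the log2 fold change had a median of 0.15, and it moved to 0.01 when the libraries were rescaled by TMM factors, so a value near 0.15 is close to that of the typical gene.

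FXR recognises an inverted repeat of AGGTCA with 1 base between the repeats (IR-1: AGGTCA, any base, then its reverse complement). Promoter windows reaching from 250 bases before to 50 bases after the start site (RefSeq, GRCm38.p6) were at hand for 9 of the 10 genes, and *Abcc3* had none. With at most 1 mismatch at the 12 fixed letters, an IR-1 was found in the windows of *Abcb11* and *Slco1b2*, compared with 0.0822% of all 32851 windows (27 windows). With up to 3 mismatches, 11.4% of all windows held a match. The palindromic consensus reads the same on both strands. The *Abcb11* window (chr2:69342567-69342866, reverse strand) and the *Slco1b2* window (chr6:141629268-141629567, forward strand) are shown because these genes carry the IR-1 letters, which stand in capitals.

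Abcb11: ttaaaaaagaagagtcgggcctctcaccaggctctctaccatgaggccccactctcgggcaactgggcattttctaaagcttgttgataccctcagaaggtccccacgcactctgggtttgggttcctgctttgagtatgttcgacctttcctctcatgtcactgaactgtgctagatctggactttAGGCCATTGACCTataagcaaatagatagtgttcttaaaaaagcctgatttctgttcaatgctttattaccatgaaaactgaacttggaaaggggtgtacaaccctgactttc

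Slco1b2: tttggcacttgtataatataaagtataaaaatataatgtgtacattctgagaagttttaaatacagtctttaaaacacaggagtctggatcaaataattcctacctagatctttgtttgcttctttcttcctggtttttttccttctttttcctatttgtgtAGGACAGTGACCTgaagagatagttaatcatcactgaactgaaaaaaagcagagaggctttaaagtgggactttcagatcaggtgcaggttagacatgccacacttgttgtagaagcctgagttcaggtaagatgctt

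In *Abcb11* the matching stretch began 63 bases before the start site, and in *Slco1b2* 88 bases before it. Each matched the consensus at 11 of the 12 fixed letters. The *Nr0b2* window, which covers the proximal promoter of the gene for SHP, held no IR-1 with up to 3 mismatches, and this says only that those letters are not in these 300 bases. The window of *Abcc2* (chr19:43782058-43782357, forward strand) is shown because this gene had the lowest unadjusted p of the 10. Its capitals mark a match to the palindromic element of the hepatocyte factor HNF1 (an inverted repeat of GTTAAT with 1 base between) with 2 mismatches, 75 bases before the start site.

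Abcc2: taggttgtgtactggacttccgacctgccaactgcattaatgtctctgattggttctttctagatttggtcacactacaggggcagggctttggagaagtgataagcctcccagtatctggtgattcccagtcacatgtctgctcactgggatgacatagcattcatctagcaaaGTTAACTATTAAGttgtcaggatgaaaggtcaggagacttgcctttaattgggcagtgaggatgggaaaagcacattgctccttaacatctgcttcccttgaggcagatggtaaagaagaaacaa

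Such an HNF1 match, with at most 2 mismatches, was in 1.36% of all windows, and among the 10 genes it was found in *Abcc2* and *Nr1h4*. A match is a description of the sequence and does not show that a factor binds there. No binding was measured in these samples.

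Across the 10 genes, both canalicular pumps were higher in the KO livers and the main uptake carrier *Slc10a1* was lower, each by about 1.5-fold (1.46, 1.45 and 1.46 for *Abcb11*, *Abcc2* and *Slc10a1* on the log2(TPM + 1) scale). Relative to the median of all tested genes, the log2 fold changes of *Abcb11*, *Abcc2* and *Slc10a1* were 0.39, 0.38 and -0.69. *Nr1h4* was lower by a smaller amount and *Slco1b2* higher. No gene of the 10 passed the adjusted threshold of 0.05 in limma, compared with 0.0835% of all tested genes. The WT and KO libraries did not overlap for 6 of the 10 genes, compared with 45.3% of all tested genes. Of these, 4 were higher in KO (34.4% of all tested genes were) and 2 lower (10.9% of all tested genes were). After upper quartile or TMM scaling 4 genes did not overlap, *Abcb11* and *Abcc2* higher and *Slc10a1* and *Nr1h4* lower in KO. Of all tested genes, 4076 of 9570 and 4145 of 9573 did not overlap after these scalings. By sign alone 6 of the 10 genes were higher in KO, compared with 66.7% of all tested genes, and none reached a 2-fold difference, compared with 3.68%. Without adjustment, limma gave a p under 0.05 to 1 of the 10, *Abcc2*, which was higher in KO, compared with 10.5% of all tested genes (8.45% higher and 2.04% lower in KO). These counts are near the background, so the 10 genes did not stand out as a set, and the median log2 fold change of 0.14 was that of the tested genes at large.

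**Figure D1:**
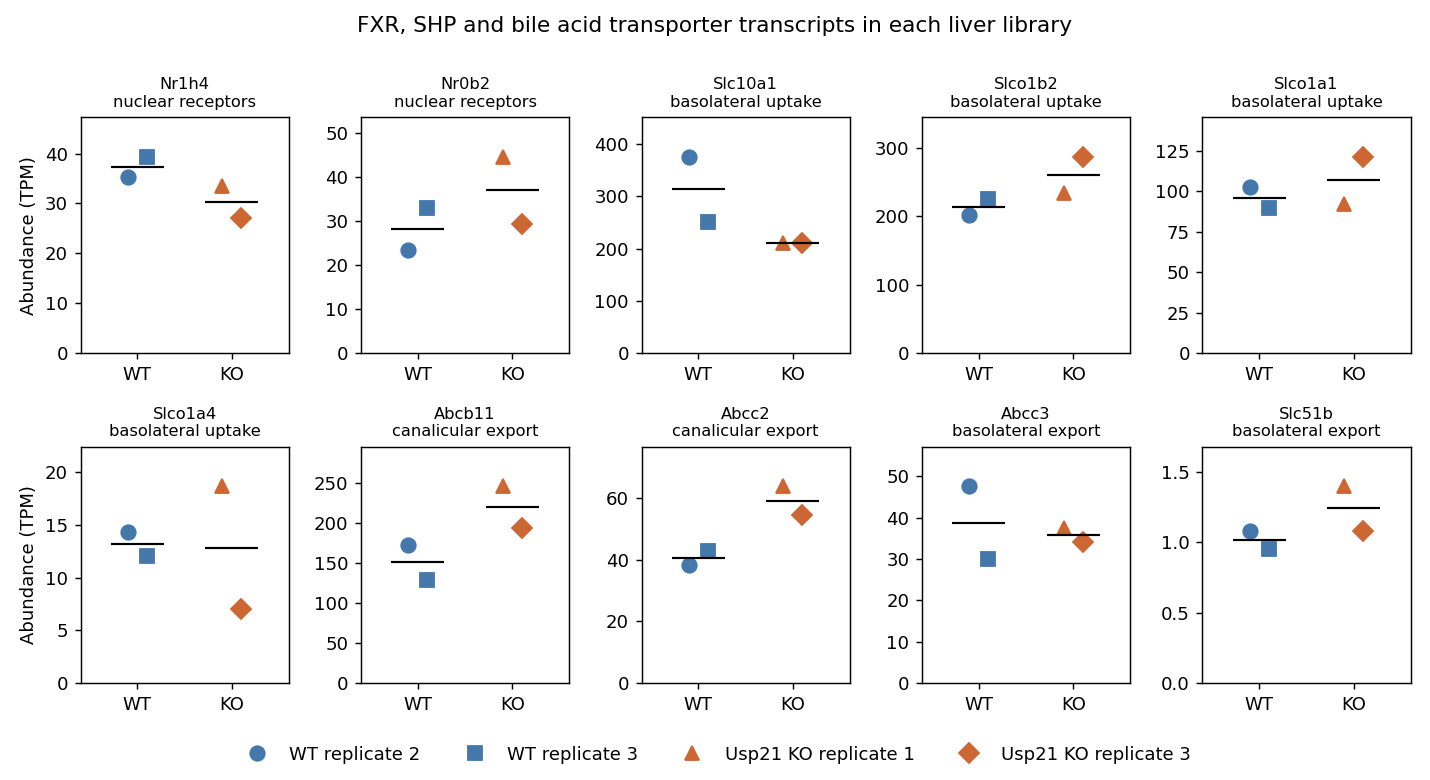
Abundance (TPM, linear axis from 0) of each of the 10 transcripts in the 2 WT (blue) and 2 *Usp21* KO (orange) liver libraries, with a black line at the mean of each genotype. Both KO points lie above both WT points for *Abcb11* and *Abcc2* and below them for *Slc10a1* and *Nr1h4*, while those of *Slco1a4* lie on either side of the WT points.

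*Nr1h4* (ENSMUSG00000047638, chromosome 10, 89454234 to 89533585 on GRCm38) encodes FXR itself. It was at 35.2 TPM in WT replicate 2, 39.4 TPM in WT replicate 3, 33.4 TPM in KO replicate 1 and 27.0 TPM in KO replicate 3. The means were 37.3 ± 2.91 TPM for WT and 30.2 ± 4.54 TPM for KO (SD, n = 2 each). Neither KO value reached up to the WT values, but KO replicate 1 was close to WT replicate 2. The log2 fold change was -0.30 (SE 0.19, limma adjusted p = 0.578), with a 95% interval from -0.78 to 0.18. It was -0.15 without KO replicate 3 and -0.45 without KO replicate 1. After TMM rescaling of all 4 libraries it was -0.46, with a 95% interval from -0.89 to -0.04 that does not reach 0. Relative to the median of all tested genes the difference was -0.45.

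*Nr0b2* (ENSMUSG00000037583, chromosome 4, 133553376 to 133556536) was at 23.4 and 32.98 TPM in the WT livers against 44.7 and 29.3 TPM in the KO livers. The means were 28.2 ± 6.77 TPM for WT and 37.0 ± 10.8 TPM for KO (SD, n = 2 each). The value of KO replicate 3 lay within the WT range. The log2 fold change was 0.37 (SE 0.28, limma adjusted p = 0.631), and it was 0.08 without KO replicate 1 and 0.13 without WT replicate 2. Since the receptor and its target were read in the same libraries, their ratio is free of the scaling between libraries. There were 0.664 and 0.838 *Nr0b2* transcripts per *Nr1h4* transcript in WT and 1.34 and 1.09 in KO. The ratio was higher in both KO libraries, by 1.62-fold, with an exact permutation p of 0.333, the smallest this design allows.

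*Slc10a1* (ENSMUSG00000021135, chromosome 12, 80953183 to 80968705) encodes NTCP, the sodium-dependent carrier that takes up most conjugated bile acids from blood. It was at 376 and 251 TPM in the WT livers against 210.1 and 210.8 TPM in the KO livers. The means were 313 ± 88.5 TPM for WT and 210.4 ± 0.484 TPM for KO (SD, n = 2 each). The KO libraries were nearly equal and both below WT, whereas the WT libraries differed by 1.499-fold, about as much as the genotypes did. The log2 fold change was -0.54 (SE 0.23, limma adjusted p = 0.479, unadjusted p = 0.0616), with a 95% interval from -1.12 to 0.04. WT replicate 2 carried much of it: the log2 fold change was -0.25 without that library and -0.83 without WT replicate 3. After TMM rescaling of all 4 libraries the log2 fold change was -0.71, with a 95% interval from -1.30 to -0.12 that does not reach 0. *Slc10a1* was the most abundant of the 10 transcripts in both WT libraries and in neither KO library. Only 4.30% of the tested genes had a lower log2 fold change.

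The organic anion transporting polypeptides, encoded by the *Slco* genes, take up bile acids and many drugs without sodium. *Slco1b2* (ENSMUSG00000030236, chromosome 6, 141629518 to 141686646) is the mouse counterpart of the human OATP1B carriers. It was at 202 and 225 TPM in the WT livers against 235 and 287 TPM in the KO livers. Both KO libraries were above WT, KO replicate 1 by a small margin, and the log2 fold change was 0.28 (SE 0.18, limma adjusted p = 0.580). After TMM rescaling the genotypes overlapped and the log2 fold change was 0.12, and they also overlapped after upper quartile scaling (0.19).

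*Slco1a1* (ENSMUSG00000041698, chromosome 6, 141907282 to 141946962), which is more abundant in male than in female mouse liver, was at 103 and 89.6 TPM in the WT livers against 92.2 and 121 TPM in the KO livers. The genotypes overlapped, and the log2 fold change was 0.14 (SE 0.20, limma adjusted p = 0.803). It turned to -0.06 without KO replicate 3 and to -0.02 after TMM rescaling. The Y-linked gene *Ddx3y* stood between 7.14 and 20.5 TPM in all 4 libraries, so transcripts of a Y chromosome were present in each.

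*Slco1a4* (ENSMUSG00000030237, chromosome 6, 141805440 to 141856199) lies in the same cluster as *Slco1a1*. It was at 14.3 and 12.1 TPM in the WT livers against 18.7 and 7.04 TPM in the KO livers. The KO libraries were 2.65-fold apart, on either side of both WT libraries, and the log2 fold change was -0.17 (SE 0.43, limma adjusted p = 0.892). Its direction depended on a single mouse, with 0.47 without KO replicate 3 and -0.82 without KO replicate 1. Of the 31-base stretches of its transcripts, 5.03% also occur in transcripts of another gene, mostly *Slco1a5*, and for *Slco1a1* this share was 4.0%, so few of their reads could be divided differently between these relatives. *Slco1a1* was 7.16 and 7.40 times as abundant as *Slco1a4* in WT, and 4.94 and 17.3 times in KO.

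*Abcb11* (ENSMUSG00000027048, chromosome 2, 69238282 to 69342616) encodes the bile salt export pump, which moves bile acids into the canaliculus and is a classic target of FXR. It was at 173 and 129 TPM in the WT livers against 246 and 194 TPM in the KO livers. The means were 151 ± 30.9 TPM for WT and 220.0 ± 37.3 TPM for KO (SD, n = 2 each). Neither KO value reached down to the WT values, although KO replicate 3 and WT replicate 2 were close. The log2 fold change was 0.54 (SE 0.22, limma adjusted p = 0.478, unadjusted p = 0.0541), with a 95% interval from -0.01 to 1.10. It was 0.33 without WT replicate 3, 0.37 without KO replicate 1 and 0.38 after TMM rescaling.

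*Abcc2* (ENSMUSG00000025194, chromosome 19, 43782192 to 43840740) encodes MRP2, the canalicular pump for bilirubin glucuronides and other conjugates. It was at 38.3 and 42.7 TPM in the WT livers against 63.8 and 54.5 TPM in the KO livers. The means were 40.5 ± 3.11 TPM for WT and 59.1 ± 6.60 TPM for KO (SD, n = 2 each). Here the gap between the genotypes was wider than the spread within either, and this was the case in no other gene of the 10. The log2 fold change was 0.53 (SE 0.18, limma adjusted p = 0.464, unadjusted p = 0.0266), with a 95% interval from 0.09 to 0.98. Whichever library was omitted, it stayed between 0.42 and 0.65, but the unadjusted p was under 0.05 only without KO replicate 3 (0.0336) and was 0.131, 0.0622 and 0.103 without WT replicate 2, WT replicate 3 and KO replicate 1. The log2 fold change was 0.37 after TMM rescaling, with a 95% interval from -0.03 to 0.77 that reaches 0. There were 4.52 and 3.03 *Abcb11* transcripts per *Abcc2* transcript in WT and 3.86 and 3.56 in KO, so that both KO ratios lay between the WT ratios.

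**Figure D2:**
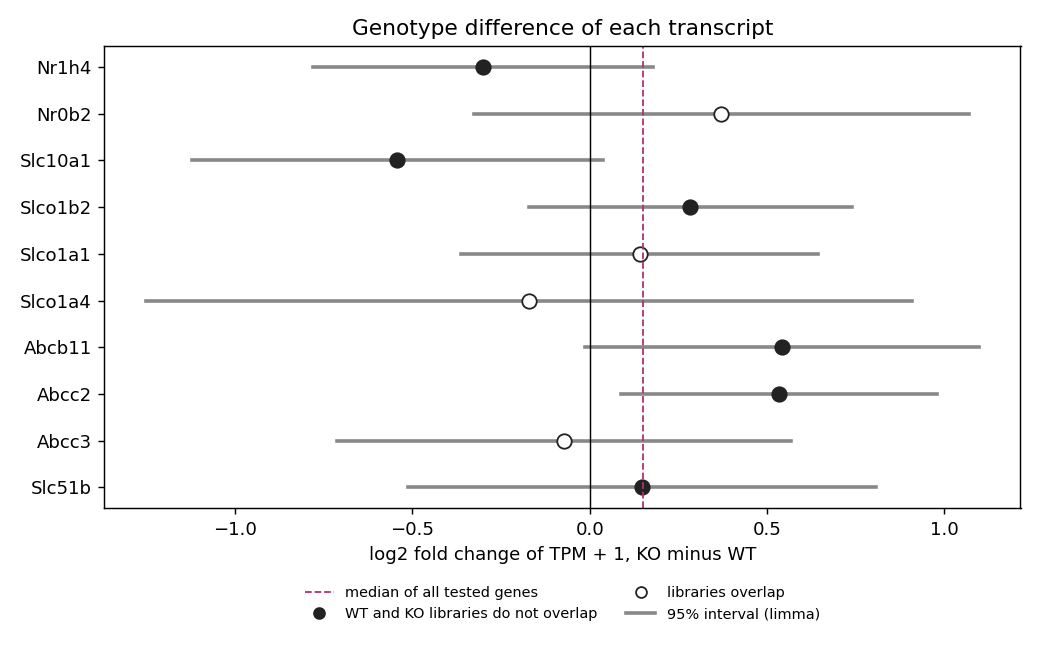
Log2 fold change of TPM + 1 (KO minus WT) for each of the 10 transcripts with its 95% interval from limma. Filled points mark genes whose WT and KO libraries did not overlap, and the dashed line marks the median of all tested genes (0.15). In this fit, without rescaling of the libraries, the interval of *Abcc2* (0.09 to 0.98) is the only interval of the 10 that does not reach 0.

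Uptake and export are linked by the bile acids that pass through the cell, so the carrier at the entrance was set against the pump at the exit. There were 2.17 and 1.94 *Slc10a1* transcripts per *Abcb11* transcript in the WT libraries and 0.853 and 1.09 in the KO libraries. The genotypes did not overlap, and the mean log2 ratio was 1.04 ± 0.12 in WT and -0.05 ± 0.25 in KO (SD, n = 2 per genotype), a difference of -1.09, or 2.13-fold. The exact permutation p was 0.333, the smallest that 2 libraries against 2 allow. Whichever library was omitted, the difference stayed between -1.27 and -0.91. This pair was chosen with earlier results of these data known. *Slc10a1* had the lowest log2 fold change of the 10 genes and *Abcb11* the highest. A wide difference in their ratio follows from that choice, so it is a description and not a separate result. A rescaling of the libraries cannot change this difference.

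**Figure D3:**
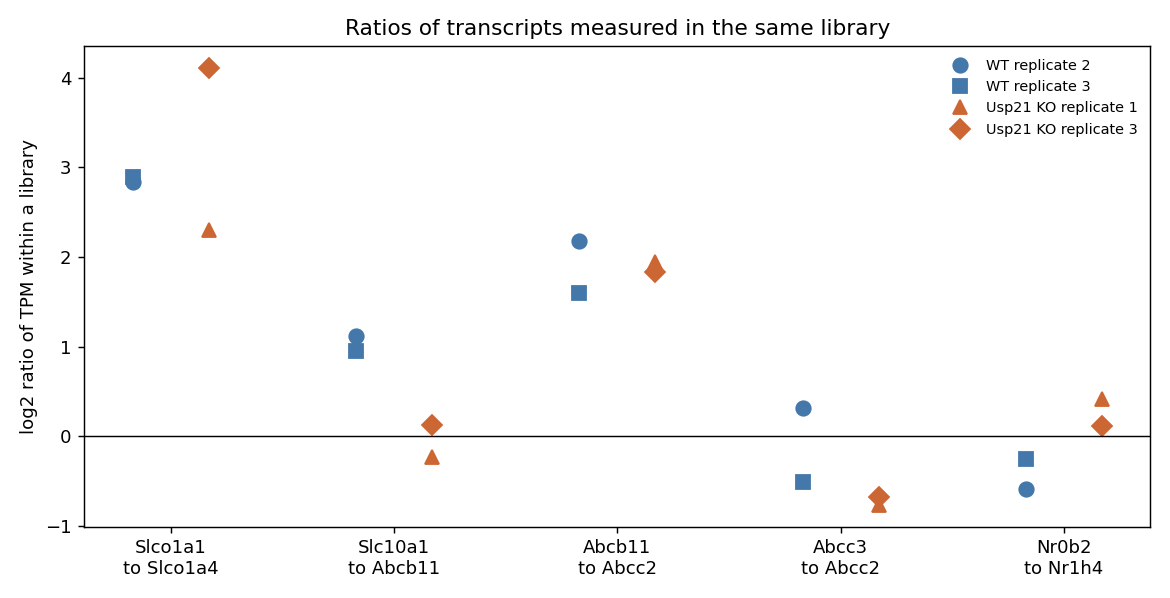
Log2 ratio of TPM of a pair of transcripts within each library, in WT (blue) and *Usp21* KO (orange). The ratios of *Slc10a1* to *Abcb11* are near 1 in WT and near 0 in KO, those of *Nr0b2* to *Nr1h4* are higher in KO, and those of *Abcb11* to *Abcc2* overlap.

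*Abcc3* (ENSMUSG00000020865, chromosome 11, 94343295 to 94392997) encodes MRP3, a basolateral pump that is induced when bile flow is blocked. It was at 47.6 and 29.9 TPM in the WT livers against 37.6 and 34.2 TPM in the KO livers. Both KO libraries lay between the WT libraries, which were 1.59-fold apart, and the log2 fold change was -0.07 (SE 0.26, limma adjusted p = 0.927), with a 95% interval from -0.71 to 0.57. Without WT replicate 2 it turned to 0.25. *Abcc3* was above *Abcc2* in WT replicate 2 and below it in the other 3 libraries, with ratios of 1.24 and 0.701 in WT and 0.590 and 0.628 in KO. These ratios did not overlap between the genotypes (exact permutation p = 0.333).

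*Slc51b* (ENSMUSG00000053862, chromosome 9, 65412714 to 65422955) encodes the beta subunit of the basolateral exporter OST. It was near the limit of the tested range, with 1.08 and 0.953 TPM in the WT livers against 1.40 and 1.08 TPM in the KO livers. The lower KO value exceeded the higher WT value by less than 0.01 TPM, and the genotypes overlapped once the libraries were rescaled by either method. The log2 fold change was 0.15 (SE 0.27, limma adjusted p = 0.847), that of the median gene. *Slc51a*, which encodes the alpha subunit required for transport, was listed at 0 in every library. OST is best known from the ileum and from bile duct cells, and the bile duct markers were low here. Of 8 such markers 7 were in the table, and their summed level was 14.6 and 15.9 TPM in the WT livers against 37.99 and 24.5 TPM in the KO livers, most of it *Spp1*, which other cells of the liver also make. The bile duct keratin *Krt19*, below the filter and so not tested, was at 0.196 and 0.263 TPM in the WT livers against 0.998 and 1.28 TPM in the KO livers. *Cftr* did not exceed 0.0443 TPM. The part of bile duct cells in the levels of *Slc51b* and *Abcc3* was not tested, and in RNA of whole liver fewer cells of a type and less RNA per cell cannot be told apart.

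By level, *Slc10a1*, *Slco1b2* and *Abcb11* were the 3 most abundant of the 10 transcripts in all 4 libraries, with *Slco1a1* next. *Slco1a4* and *Slc51b*, in that order, were the lowest throughout. The order of the top 3 differed between the libraries: *Slc10a1*, *Slco1b2*, *Abcb11* in both WT libraries, *Abcb11*, *Slco1b2*, *Slc10a1* in KO replicate 1 and *Slco1b2*, *Slc10a1*, *Abcb11* in KO replicate 3. In WT each of the top 3 lay above the next without overlap between mice, whereas in KO *Abcb11* overlapped with both others. In the middle, *Abcc2* overlapped with *Nr1h4* in WT, and *Abcc3* with *Abcc2*, *Nr1h4* and *Nr0b2*, while *Nr0b2* was below *Nr1h4* in both mice. In KO, *Abcc2* was above *Abcc3*, *Nr1h4* and *Nr0b2* in both mice, *Abcc3* was above *Nr1h4*, and *Nr0b2* overlapped with both. The summed level of the 10 transcripts was 1013 and 853 TPM in the WT livers against 983 and 966 TPM in the KO livers. The canalicular pumps together held 211 and 172 TPM in the WT livers against 310.1 and 248 TPM in the KO livers, while the uptake carriers held 695 and 577 TPM in the WT livers against 556 and 626 TPM in the KO livers, with overlap.

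**Figure D4:**
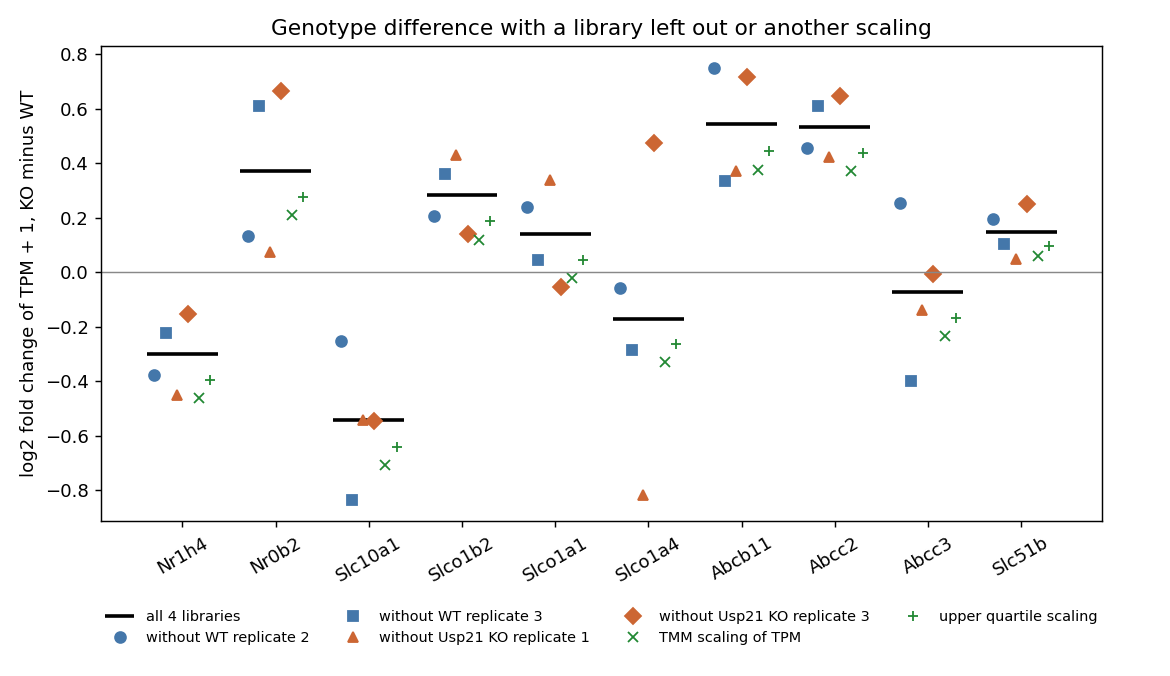
Log2 fold change of TPM + 1 (KO minus WT) for each transcript with all 4 libraries (black line), with 1 library left out (blue and orange) and with the libraries rescaled (green). *Abcc2* stays between 0.37 and 0.65 in these settings, whereas *Slco1a4* runs from -0.82 to 0.47.

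The other genes of the pathway were read from lists of names. Among 14 tested targets of FXR outside the 10 genes, 10 had a log2 fold change above 0 and 4 below, compared with 66.7% of all tested genes above 0. Their median was 0.06, compared with 0.15 for all tested genes. The list also holds *Cyp7a1* and *Cyp8b1*, genes of the synthesis that SHP represses. Its signs and median therefore mix opposite directions and do not measure a response of the targets. Without adjustment only *Abcb4* had a p under 0.05, and with adjustment 0 genes had. *Abcb4* encodes the canalicular flippase that supplies phospholipid to bile. It was at 43.0 and 29.3 TPM in the WT livers against 51.6 and 62.0 TPM in the KO livers (log2 fold change 0.66 with an SE of 0.24, limma adjusted p = 0.464). *Cyp7a1*, the rate-limiting enzyme of bile acid synthesis that SHP represses, was at 11.2 and 14.3 TPM in the WT livers against 19.5 and 4.31 TPM in the KO livers. The KO mice lay on either side of WT and differed from each other by more than the genotypes did. *Cyp8b1*, which directs synthesis to cholic acid, overlapped as well, with 97.2 and 59.0 TPM in the WT livers against 109 and 94.8 TPM in the KO livers.

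Of 17 tested genes of bile acid synthesis and conjugation, 11 were above 0 and 6 below, with a median of 0.07. The highest was *Cyp7b1*, the oxysterol hydroxylase of the alternative pathway, with 100.1 and 70.3 TPM in the WT livers against 149 and 174 TPM in the KO livers (log2 fold change 0.94 with an SE of 0.23, limma adjusted p = 0.458). The lowest was *Akr1d1*, a reductase of the sterol ring, at -0.46. Without adjustment, p was under 0.05 for 3 genes higher and 1 lower in KO (8.45% and 2.04% of all tested genes), and no gene passed the adjusted threshold. Among 15 tested genes of other hepatic transporters and flippases, 11 were above 0 and 4 below (median 0.22), 5 had an unadjusted p under 0.05, all of them higher in KO (8.45% of all tested genes were), and 0 passed the adjusted threshold. *Slc10a2*, the sodium-dependent carrier of ileum and bile duct, had the highest value, 1.06, but its libraries overlapped (WT livers 3.36 and 13.4 TPM, KO livers 21.1 and 11.4 TPM).

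Among 20 tested partners and regulators of FXR, 11 were above 0 and 9 below, with a median of 0.09, and 0 passed the adjusted threshold. *Rxra*, the main partner of FXR in liver, overlapped between genotypes (WT livers 74.9 and 56.3 TPM, KO livers 57.9 and 77.3 TPM). *Rxrg*, a minor form of that partner, was the lowest of the list, at -1.03. *Hnf4a*, a master regulator of hepatocyte genes, was at 112 and 105 TPM in the WT livers against 171 and 155 TPM in the KO livers (log2 fold change 0.59 with an SE of 0.16, limma adjusted p = 0.464). *Foxa1* had the highest value of the list, 1.06, at 1.61 to 8.97 TPM. *Nr5a2* was at 0.26, *Fgfr4*, the receptor for the intestinal signal that represses synthesis, at 0.43, *Nr1i2* (PXR) at -0.02 and *Nr1i3* (CAR) at -0.40. *Ppargc1a* was at 0.80, with 0.681 and 0.482 TPM in the WT livers against 2.43 and 1.19 TPM in the KO livers. At such low levels the added 1 makes its fold change look smaller. Of 9 tested genes for trafficking and anchoring of canalicular proteins, 7 were above 0 and 2 below (median 0.22). *Vps33b* had the highest value, 1.45, at 0.535 and 1.40 TPM in the WT livers against 5.49 and 3.24 TPM in the KO livers, and *Nherf1*, a scaffold under the apical membrane, the lowest, -0.51.

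**Figure D5:**
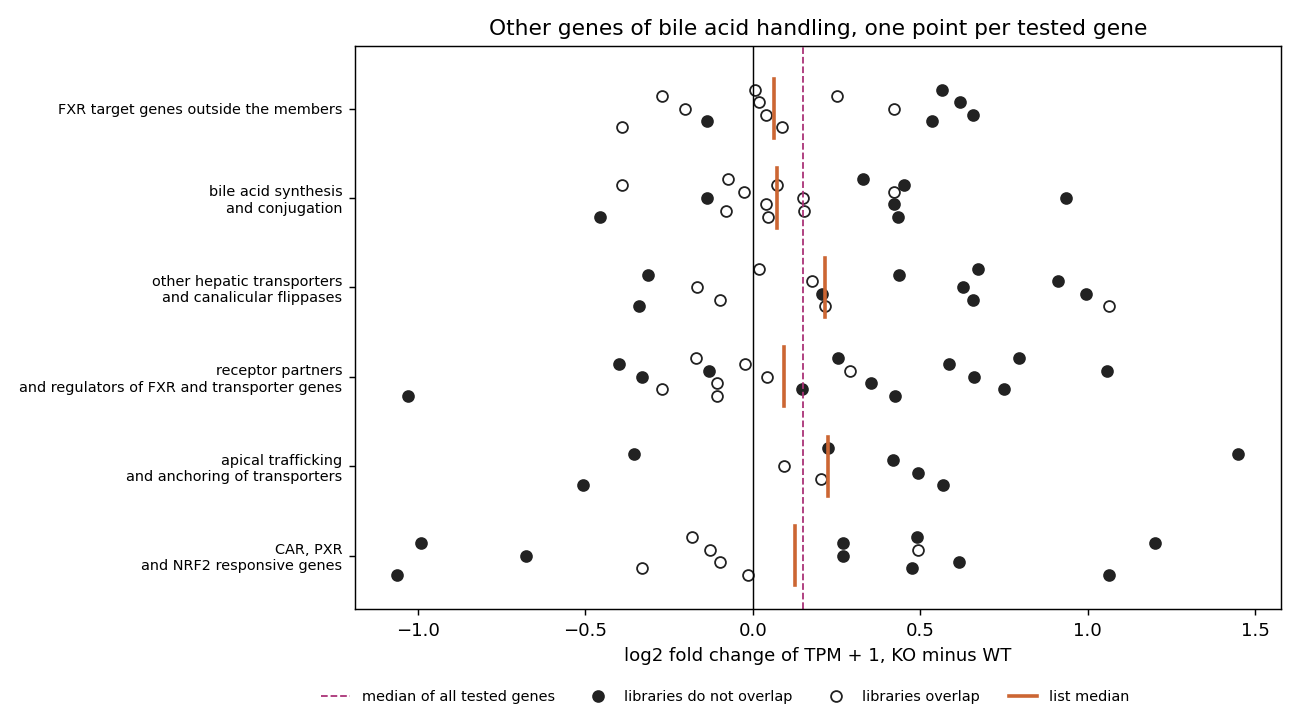
Log2 fold change of TPM + 1 (KO minus WT) of the tested genes of 6 lists, 1 point per gene, with the list median (orange) and the median of all tested genes (dashed, 0.15). Filled points mark genes whose WT and KO libraries did not overlap, and the list medians lie between 0.06 and 0.22.

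Of 11 tested clock genes, 1 passed the adjusted threshold in limma. This was *Dbp*, an output factor of the clock, which was at 56.8 and 41.3 TPM in the WT livers against 4.73 and 4.97 TPM in the KO livers (log2 fold change -3.08, adjusted p = 0.0193 from limma). *Nfil3*, which binds the same DNA element and represses it, was at 3.86 and 8.13 TPM in the WT livers against 17.02 and 24.5 TPM in the KO livers. *Bmal1*, the core activator of the clock, which was not counted in the list because the list gave its older symbol, was at 0.241 and 0.243 TPM in the WT livers against 5.89 and 4.05 TPM in the KO livers (limma adjusted p = 0.154). Without overlap between genotypes, 7 of the 11 were lower in KO and 2 higher, compared with 10.9% and 34.4% of all tested genes. The element bound by DBP (D-box, searched on both strands as exactly TTATGTAA) was in 0.938% of all promoter windows. It was in no window of the 9 genes that had one. At that share a match in so few windows would be rare, so its absence says little. The E-box CACGTG, bound by BMAL1 with CLOCK, was in 7.15% of all windows and among the 10 genes in that of *Nr0b2*, 195 bases before the start site. Many bile acid genes of mouse liver vary over the day. The part of the hour of sampling in the differences described above was not tested, and with no hour given it cannot be told apart from genotype.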

How the data were processed

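Gene expression was measured by RNA-seq (Illumina MiSeq) in liver of 2 WT and 2 *Usp21* KO mice. The authors estimated abundance with salmon against mm10 and deposited TPM for 35739 genes. Per the file headers, they also counted reads with HTSeq and deposited TMM-normalized CPM (unit: a signal, since columns were scaled by TMM factors) for 55335 genes. The submitters' processing notes name Salmon, HTSeq, edgeR, Partek and deepTools, and their versions are not given in the sources used here. Each CPM column is a whole multiple of 1 read (100% of values within 0.02), which gave back the reads. Log2 versions of both tables were not used. No per-sample column (0) went unused otherwise.

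Log2(TPM + 1) was fitted with limma 3.58.1 (lmFit, eBayes with a trend, R 4.3.3) above a filter of 1 TPM on the mean. The prior degrees of freedom were 3.62, so variances pooled over genes weigh on the p-values. These set the difference between the genotypes against the spread within each genotype in these 4 libraries. Alternatives were a pseudocount of 0.1 or 5, a filter of 5 TPM or none at all, upper quartile and TMM scaling, no moderation, the deposited CPM signal, edgeR 4.0.16 (quasi-likelihood) and DESeq2 1.42.0 on the recovered reads, and each library left out. Positions and 31-base stretches came from GENCODE M21 (GRCm38). The scripts were tested on simulated data of 9581 genes with the spread of these libraries. At the adjusted threshold limma recovered 0% of 200 genes with a log2 change of 1. With a log2 change of 3 it recovered 76% of 200, with 9 false calls. Differences under 2-fold, as in all 10 genes, could therefore hardly pass that threshold. The members and lists were chosen with earlier results of these data known. Named genes are the 10 members, *Usp21*, *Gapdh*, the highest and lowest tested gene of each list, and 11 regulators and enzymes fixed by name. Some genes under this rule are not reported here. Promoter motifs, *Alb*, *Bmal1*, marker genes and genes with an IR-1 were named after their values were seen.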

Additional observations from a re-analysis of the deposited data

How the results depend on the processing

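No member passed the adjusted threshold under any of the 14 alternatives that gave it a value (lowest adjusted p 0.403). Of 122 member values under alternatives, 112 kept their direction. Another filter or no moderation leaves a log2 fold change as it was, so those values could not turn. Also among the 112 are those of *Slco1a1* and *Slco1a4* on the CPM table and its reads, which rest on at most 1 read per library. The 10 values that turned belonged to 5 genes. *Abcc3* turned to 0.25 without WT replicate 2, *Slco1a4* to 0.47 and *Slco1a1* to -0.055 without KO replicate 3, and *Slco1a1* to -0.023 with TMM scaling. With a library left out these genes ranged from -0.40 to 0.25, from -0.82 to 0.47 and from -0.055 to 0.34. On the CPM table and the reads recovered from it, *Nr0b2* was at -1.67 (CPM), -2.37 (edgeR) and -1.68 (DESeq2) and *Slc10a1* at 1.47, 2.27 and 1.26, in each case from 1 read in 1 library, so these are no measurements of the genes.

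Members with groups not overlapping numbered 6 on TPM. They numbered 1 on the CPM table, in edgeR and in DESeq2, where 4 members had a read. With upper quartile or TMM scaling they numbered 4, compared with 4076 of 9570 and 4145 of 9573 tested genes. With a library left out, fewer samples overlap less by construction, so that count was not read. Members with an unadjusted p under 0.05 numbered 2 with upper quartile scaling (*Abcc2* and *Slc10a1*) and 2 with TMM scaling (*Slc10a1* and *Nr1h4*). Of all tested genes, 854 of 9570 and 871 of 9573 had such a p in limma after these scalings. Without moderation, on CPM, in edgeR and in DESeq2 such members numbered 0. Tested genes with an adjusted p under 0.05 numbered 8, and 4 without the filter, 0 without moderation, 1 on CPM, 1 in DESeq2, 12 in edgeR, and 0 to 7 with a library left out (0 without KO replicate 1). The ratio difference of *Slco1a1* to *Slco1a4* was 0.34 and turned to -0.56 without KO replicate 3 (range with a library left out -0.56 to 1.25). That of *Abcb11* to *Abcc2* was near 0 and turned to -0.29 without WT replicate 3 and -0.06 without KO replicate 1 (range -0.29 to 0.29). The cause of these shifts was not tested. No paired analysis was possible because the groups share only replicate number 3. With 2 libraries per genotype and unknown depth, a p that misses the threshold does not show that the genotypes were alike.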

Other observations

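A further list held genes that respond to the xenobiotic receptors CAR and PXR or to the stress factor NRF2, which also control *Abcc3* and *Slco1a4*. Of 16 tested, 8 had a log2 fold change above 0 and 8 below (median 0.13). Without overlap 7 were higher and 3 lower in KO (34.4% and 10.9% of all tested genes). An unadjusted limma p under 0.05 was given to 4 higher and 3 lower in KO (8.45% and 2.04% of all tested genes). *Cyp2c55* was the highest, with 2.68 and 3.25 TPM in the WT livers against 10.2 and 6.36 TPM in the KO livers (log2 fold change 1.2). *Por*, the electron donor of microsomal cytochromes P450, was the lowest, with 175 and 168 TPM in the WT livers against 81.8 and 81.4 TPM in the KO livers (log2 fold change -1.06 with an SE of 0.15, limma adjusted p = 0.203). No gene of the list passed the adjusted threshold.

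Genes more abundant in male liver were also read, since *Slco1a1* is of that kind. Of 10 tested genes, 9 had a log2 fold change above 0, compared with 66.7% of all tested genes, with a median of 0.67. Without overlap 6 were higher in KO (34.4% of all tested genes), 6 had an unadjusted p under 0.05 and were higher (8.45% of all tested genes), and 0 passed the adjusted threshold. *Elovl3*, a fatty acid elongase, was at 87.5 and 10.8 TPM in the WT livers against 253 and 208 TPM in the KO livers, and as a fold the WT mice were further apart than KO replicate 3 and WT replicate 2 (log2 fold change 2.83, adjusted p = 0.464 from limma). *Cyp2d9* was the lowest, at -0.08, and *Slco1a1* itself was at 0.14. Of 10 genes more abundant in female liver 2 were tested, *Acot3* (-1.52) and *Cyp17a1* (0.19), and *Cyp2b13* and *Sult3a1* were listed at 0 in every library. Of the Y-linked genes tested, *Kdm5d* had the lowest value, -0.04, and *Ddx3y* the highest, 0.69.

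Beside *Abcb11* and *Slco1b2*, 25 other genes had an IR-1 with at most 1 mismatch in their promoter window, and 7 of these were tested. *Nbr1* was at 28.4 and 29.3 TPM in the WT livers against 51.9 and 37.6 TPM in the KO livers (log2 fold change 0.60, adjusted p = 0.464 from limma), and *Rdh9* was at 22.4 and 12.7 TPM in the WT livers against 11.03 and 12.4 TPM in the KO livers (log2 fold change -0.50). Of the 9 tested genes with such a match, *Abcb11* and *Slco1b2* included, 4 were higher and 1 was lower in KO without overlap, compared with 34.4% and 10.9% of all tested genes.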
